A study of Mus musculus with 4 samples.

Results

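CD4 T cells that carried 2 productive alpha chains of the T cell receptor were compared with CD4 T cells that carried 1. A cell entered the comparison when its barcode had at least 500 detected genes, at most 10% of UMIs (unique molecular identifiers, one per captured RNA molecule) from mitochondrial genes, and exactly 1 beta chain contig (TRB, an assembled receptor sequence) in the receptor table of the same mouse. Cells with exactly 2 alpha chain contigs (TRA), called 2-alpha cells here, numbered 769 in mouse 1 and 701 in mouse 2, 1470 of 19729 barcodes in all. Cells with exactly 1 TRA contig, called 1-alpha cells, numbered 5028 and 5437. The same gene and mitochondrial filters left 9860 and 9642 barcodes, of which 708 and 702 had 2 TRB contigs and stayed out of the comparison. No barcode had more than 2 contigs of a chain.

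The cells came from spleens of B6.H2g7 donor mice (strain B6.NOD-(D17Mit21-D17Mit10)/LtJ, aged 6 to 8 weeks), C57BL/6 animals that carry the MHC region of the diabetes-prone NOD mouse. Column-purified CD4 T cells, 5000000 in number, were given to NOD.Rag1null hosts, whose Rag1 defect leaves them without their own lymphocytes that carry receptors, and live cells stained for CD4 and the TCR beta chain were sorted from the spleens of 2 hosts on day 14. Each host gave 1 expression and 1 receptor library, and both classes of cell come from the same animals with the same treatment. The labels name 2 donor mice and do not say whether their cells were pooled. The p-values cover only how the difference between the classes varied between these 2 hosts, with that spread pooled across genes.

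The T cell receptor is a pair of an alpha and a beta chain, each assembled in the thymus by joining gene segments. The beta locus is allelically excluded, so that most T cells express 1 beta chain. The alpha locus is not: both alleles rearrange, in successive rounds that join V segments to J segments lying ever further along the locus, until a receptor is positively selected. A share of mature T cells therefore carries 2 productive alpha chains, which can give a cell 2 receptor specificities.

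The clonotypes with most 2-alpha cells show what such a cell holds. A clonotype is the set of cells of 1 mouse that share a TRBV segment, a TRBJ segment and the nucleotides of the TRB CDR3, CDR3 being the stretch across the segment join that touches the peptide. The CDR3 sequences of the leading 2 clonotypes of each mouse are shown because the same pair of alpha chains recurs in nearly all their cells. Capitals mark bases found in neither the V nor the J segment of the GENCODE M21 transcripts, and the higher alpha is the chain with more UMIs.
mouse 1, clonotype 1, beta: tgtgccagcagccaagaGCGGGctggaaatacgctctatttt
mouse 1, clonotype 1, higher alpha: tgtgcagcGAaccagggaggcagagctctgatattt
mouse 1, clonotype 1, lower alpha: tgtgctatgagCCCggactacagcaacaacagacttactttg
mouse 1, clonotype 2, beta: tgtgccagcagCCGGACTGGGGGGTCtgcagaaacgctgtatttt
mouse 1, clonotype 2, higher alpha: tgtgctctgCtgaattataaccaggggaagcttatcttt
mouse 1, clonotype 2, lower alpha: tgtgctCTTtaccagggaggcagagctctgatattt
mouse 2, clonotype 1, beta: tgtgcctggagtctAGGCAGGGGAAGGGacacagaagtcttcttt
mouse 2, clonotype 1, higher alpha: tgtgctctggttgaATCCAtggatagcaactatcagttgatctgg
mouse 2, clonotype 1, lower alpha: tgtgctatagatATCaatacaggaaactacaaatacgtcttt
mouse 2, clonotype 2, beta: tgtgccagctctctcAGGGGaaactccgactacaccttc
mouse 2, clonotype 2, higher alpha: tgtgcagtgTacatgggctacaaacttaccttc
mouse 2, clonotype 2, lower alpha: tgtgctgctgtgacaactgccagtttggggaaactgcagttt

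Clonotype 1 of mouse 1 (TRBV2 with TRBJ1-3) had 18 cells, and 17 of them held both TRAV14N-2/TRAJ15 and TRAV6-3/TRAJ7. Clonotype 2 of mouse 1 (TRBV13-3 with TRBJ2-3) had TRAV6N-7/TRAJ23 with TRAV13N-3/TRAJ15 in 15 of 16 cells. The third of mouse 1 (TRBV16 with TRBJ2-2) paired TRAV21-DV12/TRAJ37 with TRAV12N-2/TRAJ45 in 11 of 14 cells. In mouse 2, clonotype 1 (TRBV31 with TRBJ1-1) held TRAV6D-4/TRAJ33 and TRAV13-2/TRAJ40 in 16 of 17 cells, and 13 of the 17 had a UMI of Foxp3, the transcription factor that defines regulatory T cells. Clonotype 2 of mouse 2 (TRBV12-2 with TRBJ1-2) held TRAV7N-5/TRAJ9 and TRAV4N-3/TRAJ24 in 12 of 12 cells, and 12 of them had a Foxp3 UMI. The third of mouse 2 (TRBV1 with TRBJ2-1) held TRAV14-2/TRAJ34 and TRAV7-3/TRAJ32 in 10 of 10 cells. No cell of the other 4 of these clonotypes had a Foxp3 UMI (0 of 18, 16, 14 and 10 cells). On GRCm38, per GENCODE M21, TRAV14N-2 lies at chr14:53259578-53260179 and TRAJ15 at chr14:54204422-54204481, both coding segments on the plus strand, and TRBV2 lies at chr6:41047340-41047995.

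The expression libraries held 70092822 and 75940181 UMIs over all barcodes, and the compared cells 38000541 and 43822120. The libraries shared 166 barcodes, 54 of them among compared cells, and in 0 of these 54 did the TRB CDR3 match. Cd4 and the T cell marker Cd3e, a subunit of the receptor complex, were present in both classes. In mice 1 and 2, Cd4 was at 358 and 358 CPM (counts scaled to the total UMIs of the sum) in 2-alpha cells. It was at 376 and 398 CPM in 1-alpha cells. Cd3e was at 1603 and 1521 CPM in 2-alpha cells and 1539 and 1675 CPM in 1-alpha cells. Of the 2 CD8 T cell markers, Cd8a was at 0 in all 4 sums, and Cd8b1 was at 13.2 and 12.0 CPM in 2-alpha cells against 8.48 and 8.14 CPM in 1-alpha cells (log2 fold change 0.59, adjusted p = 0.296, edgeR), a difference that passed with depth-matched 1-alpha cells and with no filter on low counts. The 12 B cell markers summed to 171 and 244 CPM in 2-alpha cells against 166 and 190 CPM in 1-alpha cells, and the 13 myeloid markers to 108 and 15.3 CPM against 50.8 and 44.0 CPM. The 11 dendritic cell markers summed to 187 and 131 CPM against 145 and 159 CPM, and the 8 NK cell markers to 30.5 and 14.6 CPM against 19.5 and 24.6 CPM. The 6 erythroid markers summed to 11.5 and 4.73 CPM against 7.13 and 51.8 CPM, and the 4 gamma delta T cell markers to 0.752 and 0.728 CPM against 24.1 and 0.939 CPM. The 5 invariant NKT markers, some of which CD4 T cells also express, summed to 722 and 791 CPM against 705 and 782 CPM, and the 5 platelet markers to at most 0.245 CPM. Cells with 5 or more UMIs of B cell, myeloid, erythroid and platelet markers made up 10.0% and 15.7% of 2-alpha cells and 8.17% and 10.7% of 1-alpha cells. Without them, an alternative chosen after seeing the data, 34 genes passed the expression comparison below, against 14 over all cells. Of the 14 genes, 11 were among the 34. The part of cells with the other markers in the results was not tested.

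Cells with 2 alpha chains made up 13.3% of the compared cells of mouse 1 (exact Clopper-Pearson 95% interval 12.4 to 14.2%) and 11.4% of those of mouse 2 (10.6 to 12.2%), a mean of 12.3% ± 1.30 (SD, n = 2 mice). Such intervals cover counting error only. With 2 mice an exact paired test cannot give a p under 0.5, so shares are given without a test. Among cells with TRBV26, the segment of the Vβ3 chain that the study's title concerns, the share was 13.4% and 13.8%, against 13.2% and 10.4% in the other cells. Counting each clonotype once, the share was 15.3% and 14.4% in TRBV26 clonotypes and 15.8% and 15.5% in the others. The smallest shares among TRB V segments with at least 100 cells in each mouse included TRBV14, at 2.35% of 170 cells (18 clonotypes) and 3.92% of 153 cells (26 clonotypes). TRBV13-3 differed between the mice, with 14.1% of 199 cells (58 clonotypes) in mouse 1 and 1.35% of 371 cells (67 clonotypes) in mouse 2. TRBV31 differed the other way, with 1.17% of 514 cells (46 clonotypes) and 15.6% of 212 cells (85 clonotypes). Cells of 1 clonotype are not independent, so these shares can follow a few large clones.

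Cells with 2 alpha chains were slightly deeper. Their median was 5862 UMIs against 5636 in 1-alpha cells of mouse 1, and 6650 against 6212 in mouse 2, a ratio of 1.04 and 1.07 (mean 1.06 ± 0.0214 SD, n = 2 mice). The median number of genes was 2373 against 2306 and 2600 against 2499, and after each cell was thinned to 2000 UMIs it was 1124 against 1123 and 1137 against 1132. Barcodes with 2 TRB contigs had medians 1.17 and 1.16 times those of 1-alpha cells, a larger gap. The share of 2-alpha cells was 11.4% in the lowest quintile of cells by UMIs and 15.3% in the highest quintile of mouse 1, and 9.61% and 15.1% in mouse 2. Detection of a further contig at greater depth and a true difference in RNA content cannot be told apart from these values.

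**Figure D1:**
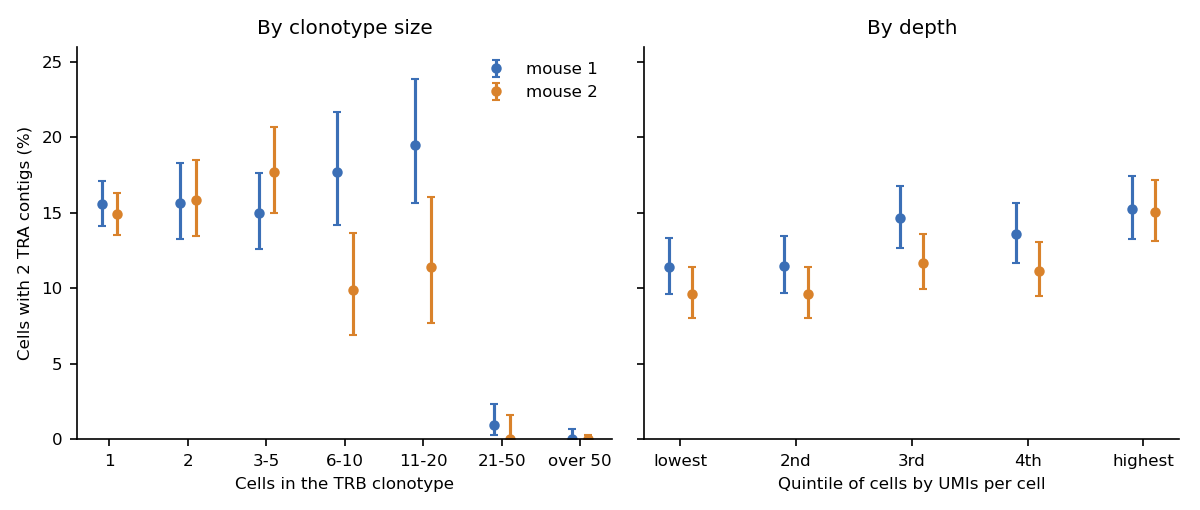
Share of compared cells with 2 TRA contigs (vertical axis, percent) by the number of cells in their TRB clonotype (left) and by quintile of UMIs per cell (right), with blue points for mouse 1, orange points for mouse 2 and exact 95% intervals as bars. The share is near 15% in single-cell clonotypes, 0 in clonotypes of over 50 cells, and goes from 11.4% to 15.3% (mouse 1) and 9.61% to 15.1% (mouse 2) between the lowest and highest quintile.

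The classes are defined by TRA contigs, so their TRA levels are a description. The median of all TRA contig UMIs was 21 and 22 per 2-alpha cell, against 11 and 11 per 1-alpha cell. Within a 2-alpha cell the first chain had a median of 13 and 14 UMIs and the second 8 and 8, so that the second chain held a median of 38.5% and 39.1% of the cell's TRA UMIs. The second chain had under 3 UMIs in 63 (8.19%) and 45 (6.42%) cells. In the expression library Trac, the constant gene of the alpha chain, was at 266 and 262 CPM in 2-alpha cells and at 226 and 212 CPM in 1-alpha cells, a ratio of 1.18 and 1.24. Trbc2, a constant gene of the beta chain, was at 836 and 855 CPM against 871 and 738 CPM, so its direction differed between the mice. In sums over cells, more cells with a transcript and more transcript per cell cannot be told apart.

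V segment transcripts in the expression library were a second reading of the same cells. A UMI of the V gene of the second chain was present in 506 of 757 2-alpha cells of mouse 1 (66.8%) and 489 of 683 of mouse 2 (71.6%). In 1-alpha cells whose own chain used another V gene, the corresponding V genes had a UMI in 0.944% and 0.951% of cells, at median depths of 5636 and 6212 UMIs. The first chain's V gene had a UMI in 67.1% and 69.8% of 2-alpha cells, and the only chain's in 71.0% and 63.5% of 1-alpha cells. V genes of one family are near-identical copies, so UMIs of single V genes are uncertain.

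The second chain was shared within clones. Among 2-alpha cells in clonotypes of at least 2 cells, the second TRA CDR3 was found in another cell of the same clonotype in 377 of 404 cells of mouse 1 (93.3%) and 299 of 323 of mouse 2 (92.6%), a mean of 92.9% ± 0.528 (SD, n = 2 mice). The first TRA recurred in 95.3% and 94.4% of these cells, and the whole pair in 91.3% and 88.9%. Second chains of under 3 UMIs recurred in 19 of 23 and 10 of 12 cells. By comparison, 10.3% and 6.70% of second chains were found in another clonotype of the same mouse, against 10.9% and 8.35% of the chains of 1-alpha cells. In single-cell clonotypes the direction was the other way, at 11.8% and 8.73% of second chains against 7.52% and 7.83% of 1-alpha chains. First chains of single-cell clonotypes were at 7.67% and 9.79%. In 0 cells of mouse 1 and 2 cells of mouse 2 did both chains have the same CDR3 nucleotides.

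Most clonotypes had no 2-alpha cell, and the others held them at all shares. Of clonotypes with at least 3 cells, 263 in mouse 1 and 232 in mouse 2 had no 2-alpha cell, and 31 and 25 consisted of 2-alpha cells only. Between these, 5 and 4 clonotypes had a 2-alpha share above 0 and up to 25%, 5 and 6 a share over 25 and up to 50%, 11 and 15 over 50 and up to 75%, and 10 and 5 over 75 and under 100%. A pair of TRA CDR3 recurred in at least 2 cells of 56 and 47 of these clonotypes, which held 312 and 211 cells, and both chains were detected in 84.9% and 86.7% of these cells. These clonotypes were chosen by their detected pairs, which raises that rate by design. Another 6 and 8 clonotypes had 2-alpha cells but no recurring pair and do not enter it, with 5.74% and 28.6% 2-alpha cells. In the remaining 47 and 28 cells of clonotypes with a recurring pair, 1 chain was detected. That chain was the clonotype's higher alpha in 35 and 17 cells, the lower in 10 and 8, and neither in 2 and 3. These cells had median depths of 3571 and 4620 UMIs, against 5772 and 6640 UMIs in cells of the same clonotypes with 2 chains. Within 2-alpha clonotypes, the cells with 1 detected chain were therefore the shallower ones.

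The largest clonotypes had no second alpha chain. Clonotypes of over 50 cells numbered 4 in mouse 1 and 10 in mouse 2, with 0 of 571 and 0 of 1222 cells in the 2-alpha class, which allows a share of up to 0.525% and 0.245% (3 counts of the total; the exact Clopper-Pearson upper bounds are 0.644% and 0.301%). These limits treat cells as independent, which cells of 1 clone are not. Each held 1 distinct TRA CDR3. Single-cell clonotypes had a 2-alpha share of 15.6% and 14.9%, and clonotypes of 2 cells 15.7% and 15.9%. Shares then differed between the mice, at 19.5% and 11.4% in clonotypes of 11 to 20 cells. Above 20 cells they were 0.395% (4 of 1012 cells) and 0 of 1456 cells. Cells of over-50 clonotypes made up 11.4% and 22.5% of 1-alpha cells and 0% of 2-alpha cells, so the 1-alpha class is weighted to a few large clones. A clonotype counts once however many cells it holds, and clonotypes of over 50 cells number 4 and 10, so the difference rests on few clones. Per clonotype the 2-alpha share was 15.5% and 15.0%.

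**Figure D2:**
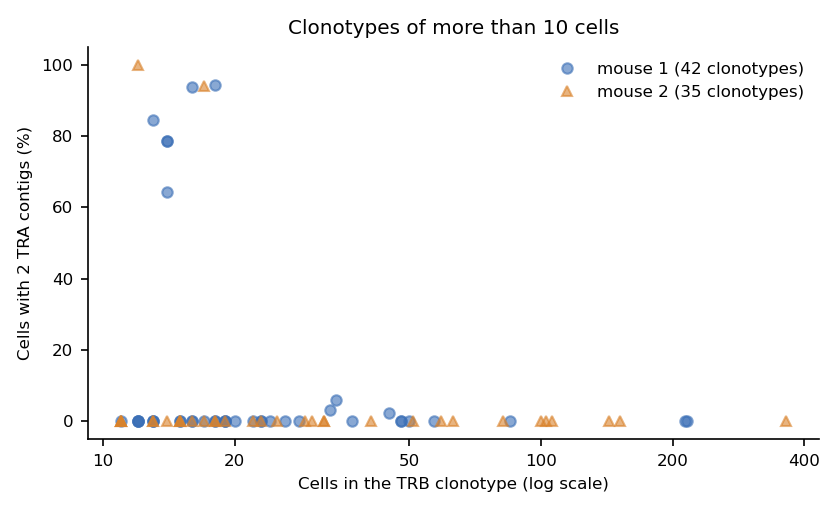
Each point is 1 TRB clonotype of more than 10 cells, placed by its number of cells (horizontal, log scale) and its percentage of cells with 2 TRA contigs (vertical), with blue circles for the 42 clonotypes of mouse 1 and orange triangles for the 35 of mouse 2. 33 clonotypes of each mouse lie at 0, and 6 and 2 lie above 50%, all with at most 18 cells.

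The J segments of both chains of a cell were alike in position. TRAJ segments are numbered along the locus, and over 1019 pairs, each counted once per clonotype, the TRAJ numbers of the first and second chain had a Pearson r of 0.591 and a Spearman rho of 0.603. The r was 0.546 in mouse 1 (508 pairs) and 0.636 in mouse 2 (511 pairs), and 0.677 over the 207 pairs found in at least 2 cells. These are descriptions over pairs of chains that share a cell and a library, with no test. The chains were within 5 numbers of each other in 38.5% of pairs and used the same TRAJ in 55 pairs (5.40%). Start positions of the V segments had an r of 0.0896. Chains of 2-alpha cells and 1-alpha cells used similar segments: TRAJ31 (chr14:54187895-54187951) made up 7.38% and 6.07% of chains of 2-alpha cells and 6.06% and 5.30% of those of 1-alpha cells. TRAJ23 made up 5.71% and 5.87% against 7.02% and 6.76%, and TRAV13-1 3.64% and 3.52% against 4.36% and 3.88%. The median TRAJ number was 31 and 32 in 2-alpha cells and 31 in 1-alpha cells of both mice.

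**Figure D3:**
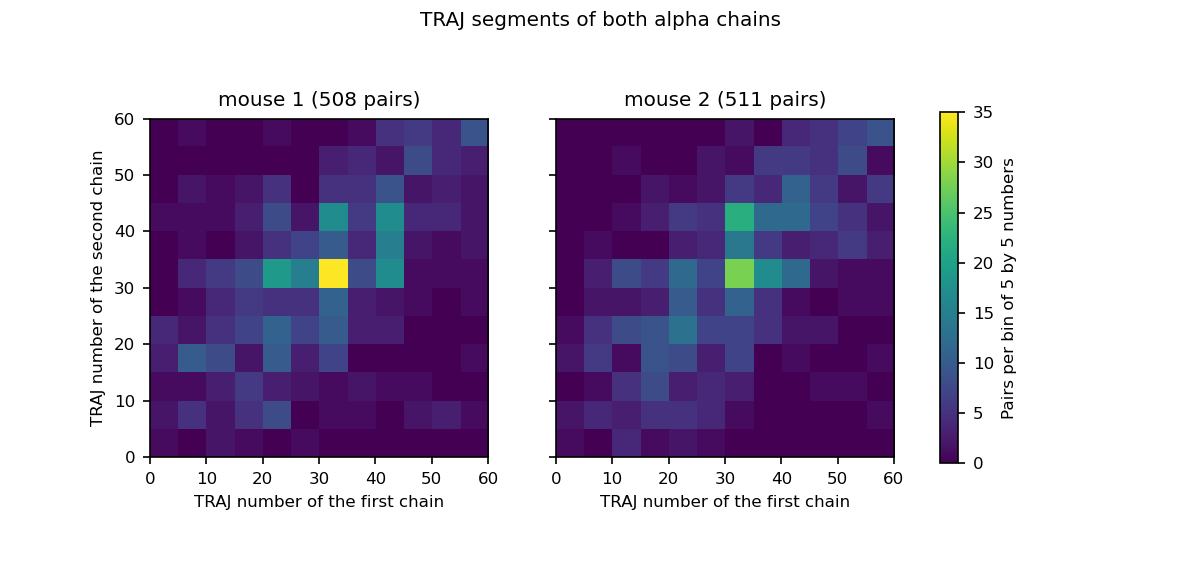
TRAJ number of the first chain (horizontal) and of the second chain (vertical) of 2-alpha pairs in mouse 1 (508 pairs, left) and mouse 2 (511 pairs, right), as the number of pairs per square of 5 by 5 numbers (colour). Pairs lie along the diagonal, with an r of 0.546 and 0.636.

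Expression of 2-alpha and 1-alpha cells was compared on UMI counts summed per mouse and class, with receptor segments left out. Of 12966 genes tested, 14 passed an adjusted p of 0.05 in edgeR's quasi-likelihood test with the mouse as a block and Benjamini-Hochberg adjustment (0.108%), 7 higher (0.054%) and 7 lower (0.054%) in 2-alpha cells. The median log2 fold change over all genes was -0.0021. Foxp3, Tnfrsf9, Odc1 and Cd74 were higher, and Gzma, Ifitm1, Esm1, Gzmk, Ctla2a and Cd7 were lower, with the same direction in both mice. The other 4 called genes (S100a8, S100a9, Ngp and Hs6st3) were under 20 CPM in both classes or went in opposite directions in the mice. A joint edgeR fit gave log2 fold changes in TRBV26 cells and, second, in other cells. They were 0.18 and 0.73 (Foxp3), 0.68 and 0.47 (Tnfrsf9), 0.09 and 0.50 (Odc1), -0.08 and 0.53 (Cd74). For lower genes they were -0.14 and -2.49 (Gzma), -0.71 and -1.23 (Ifitm1), -0.15 and -1.24 (Esm1). Gzmk had -0.09 and -1.18, Ctla2a -0.40 and -0.86, Cd7 -0.02 and -0.66. The difference between these cells passed for none of them.

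Foxp3 was at 123 and 192 CPM in 2-alpha cells and at 93.3 and 112 CPM in 1-alpha cells of mice 1 and 2. Each 2-alpha sum was above both 1-alpha sums. The log2 fold change was 0.60 ± 0.08 (SE; adjusted p = 0.0233, edgeR). After thinning to 2000 UMIs, 14.9% and 17.4% of cells with a Foxp3 UMI were 2-alpha, against 13.1% and 10.6% of cells without one. In clonotypes of 10 or fewer cells these shares were 15.8% against 15.8% and 16.2% against 15.1%. The 1 clonotype with most Foxp3 UMIs held 8.09% and 7.96% of the Foxp3 UMIs of 2-alpha cells.

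Tnfrsf9, which encodes the activation-induced costimulatory receptor 4-1BB, was at 173 and 236 CPM against 138 and 150 CPM, with no overlap between classes (log2 fold change 0.49 ± 0.07 SE, adjusted p = 0.0343, edgeR). Odc1, the rate-limiting enzyme of polyamine synthesis, was at 268 and 229 CPM against 198 and 184 CPM (log2 fold change 0.37, adjusted p = 0.0227, edgeR). Cd74, the MHC class II invariant chain, was at 279 and 282 CPM against 223 and 216 CPM (log2 fold change 0.35, adjusted p = 0.0227, edgeR). In mouse 1, 1 cell held 13.8% of the Cd74 UMIs of 2-alpha cells.

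Genes of cytotoxic and effector cells were among those lower in 2-alpha cells. Gzma, which encodes the protease granzyme A, was at 7.71 and 9.47 CPM in 2-alpha cells and at 28.9 and 39.2 CPM in 1-alpha cells (log2 fold change -1.99 ± 0.12 SE, adjusted p = 0.000244, edgeR). A single 1-alpha cell held 314 of the 945 Gzma UMIs of mouse 1 and another 288 of the 1501 of mouse 2. A Gzma UMI was present in 3.25% and 5.14% of 2-alpha cells and in 2.41% and 3.33% of 1-alpha cells, so the share of cells went against the CPM and gives no order. Gzmk, another granzyme, was at 414 and 187 CPM against 592 and 409 CPM (log2 fold change -0.81, adjusted p = 0.0227, edgeR). With 1 cell per clonotype its log2 fold change was -0.16 (adjusted p = 0.159, edgeR), and it missed the threshold in 8 of 20 alternatives. In the sums over all cells, 1 clonotype held 12.9% and 10.7% of its UMIs in 1-alpha cells. The 2-alpha sum of mouse 1 lay above the 1-alpha sum of mouse 2, so the classes overlapped across mice.

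Ifitm1, an interferon-induced membrane protein gene, was at 33.3 and 89.4 CPM against 96.3 and 156 CPM (log2 fold change -1.09, adjusted p = 0.0211, edgeR). Its UMIs came from few cells, 11 and 12 of the 2-alpha and 115 and 120 of the 1-alpha cells. Ctla2a, a cysteine protease inhibitor gene, was at 67.9 and 49.3 CPM against 104 and 84.7 CPM (log2 fold change -0.70, adjusted p = 0.00808, edgeR). Esm1 was at 28.2 and 14.9 CPM against 44.2 and 30.4 CPM (log2 fold change -0.81, adjusted p = 0.0276, edgeR). With 1 cell per clonotype its log2 fold change was -0.19 (adjusted p = 0.863, edgeR), and it missed the threshold in 13 of 20 alternatives. Cd7, a surface receptor of T and NK cells, was at 193 and 117 CPM against 254 and 190 CPM (log2 fold change -0.54, adjusted p = 0.0227, edgeR), and 1 clonotype held 17.4% and 13.5% of its UMIs in 1-alpha cells.

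In 2-alpha cells of mouse 1, UMIs of the neutrophil genes S100a8 and Ngp came almost wholly from 1 cell for each gene. There, 1 cell held 114 of the 122 S100a8 UMIs of 2-alpha cells, and 1 cell held 54 of the 55 Ngp UMIs. In 2-alpha cells of mouse 2, S100a8 had 1 UMI and Ngp 0. In 1-alpha cells of mouse 1, S100a8 had 118 UMIs in 55 cells, 60 of them in 1 cell, and Ngp had 20 UMIs in 19 cells. S100a9 had 210 of its 228 UMIs in 1 cell of the 2-alpha class of mouse 1 and 208 of 294 in 1 cell of the 1-alpha class.

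**Figure D4:**
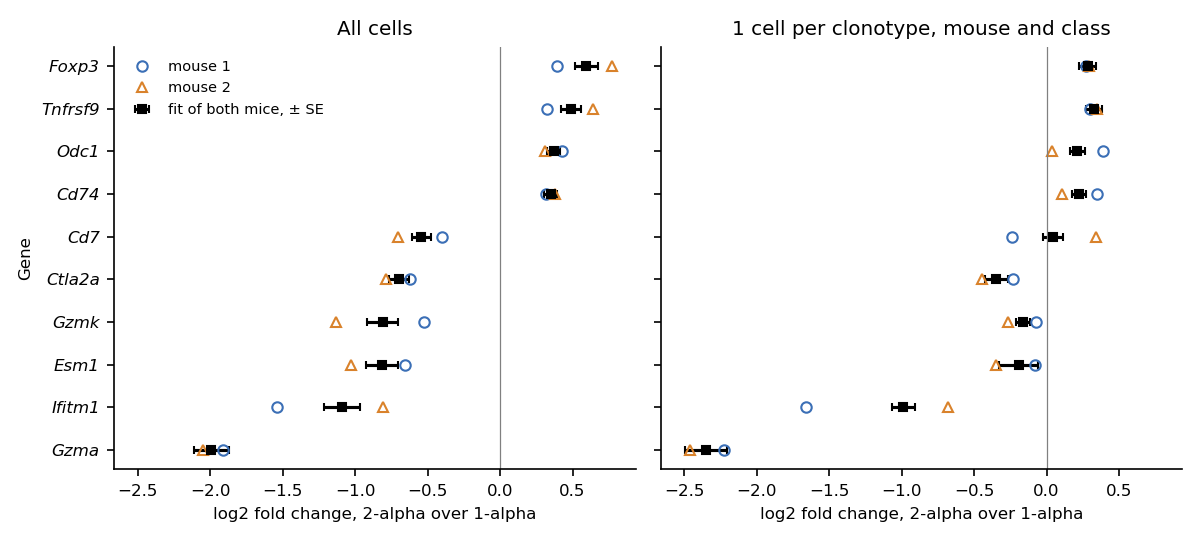
Log2 fold change of 2-alpha over 1-alpha cells (horizontal) for the 10 genes past the threshold by the naming rule (vertical), over all cells (left) and with 1 cell per clonotype, mouse and class (right), with circles for mouse 1, triangles for mouse 2 and squares with SE bars for the fit of both mice. Gzma stays lowest on both sides (-1.99 and -2.35), while Cd7 goes from -0.54 to 0.05.

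The calls differed when each clonotype was counted once. With 1 cell drawn per clonotype, mouse and class, 68 of 12033 genes passed, 50 higher (0.416%) and 18 lower (0.15%), and 8 of the 14 were among them. Of these 8, 7 had the same direction, and S100a9 went from 2.14 to -2.71. Here the spread pooled across genes carried more weight, at 90.7 prior degrees of freedom against 8.83 over all cells, each with 1 residual degree of freedom. Foxp3 was then at 128 and 167 CPM against 105 and 137 CPM (log2 fold change 0.29, adjusted p = 0.00144, edgeR), a smaller difference. Its 2-alpha sum of mouse 1 lay below the 1-alpha sum of mouse 2, so here the classes overlapped across mice. Gzma was at 8.66 and 8.20 CPM against 40.3 and 45.3 CPM (log2 fold change -2.35). Nr4a1, an early gene of receptor signalling, had missed the threshold over all cells at 74.6 and 106 CPM against 60.2 and 45.6 CPM (log2 fold change 0.78, adjusted p = 0.168, edgeR). With 1 cell per clonotype it passed, at 95.9 and 120 CPM against 65.0 and 55.3 CPM (log2 fold change 0.86, adjusted p = 8.17e-16, edgeR). Over all compared cells, single cells held 18.6% and 11.5% of the Nr4a1 UMIs of 2-alpha cells. Their share in the draw of 1 cell per clonotype was not computed.

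Gene lists were read by counts, beside 0.108% of all genes called. Of 14 measured regulatory T cell genes, Foxp3 was higher and 13 did not pass, with a median log2 fold change of 0.35. Ctla4, an inhibitory receptor of regulatory T cells, was at 231 and 351 CPM against 196 and 227 CPM (0.43, adjusted p = 0.108, edgeR), and Il2ra, the IL-2 receptor alpha chain, at 32.7 and 80.1 CPM against 31.5 and 41.6 CPM (0.58, adjusted p = 0.332, edgeR). Of 15 genes of the response to receptor signals, Tnfrsf9 was higher and 14 did not pass (median 0.17), Tnfrsf4, the costimulatory receptor OX40, having a log2 fold change of 0.45 (adjusted p = 0.0655, edgeR). Of 13 cytotoxic genes, Gzma and Gzmk were lower and 11 did not pass (median -0.40). Of 16 Th1 genes, 1 was lower, Gzmk, with a median of -0.27. Ifng, the main Th1 cytokine, was at 123 and 53.0 CPM against 140 and 128 CPM (-0.67, adjusted p = 0.298, edgeR).

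None of the 20 genes of the receptor complex and proximal signalling passed (median -0.02), with 4 at an unadjusted p under 0.05 in edgeR. Of all 12966 genes, 955 had such a p. Cd5, an inhibitory receptor whose level follows receptor signal strength, was at 465 and 512 CPM against 442 and 429 CPM (0.16, adjusted p = 0.404, edgeR). Lck, the kinase that starts receptor signalling, was at 1092 and 998 CPM against 1099 and 1004 CPM. None of the 22 proliferation genes passed (median 0.15, with 11 at an unadjusted p under 0.05 in edgeR). The number at such a p was 12 of 14 for regulatory T cell, 10 of 16 for Th1, 9 of 13 for cytotoxic and 8 of 15 for receptor signal response genes. In other lists the share was lower, such as 4 of 14 for apoptosis and survival and 3 of 12 for glycolysis genes. It was 0 of 15 for oxidative phosphorylation and 0 of 14 for ribosomal protein genes. Mki67, a marker of cycling cells, was at 164 and 143 CPM against 167 and 103 CPM. None of 14 naive and quiescence genes, 14 Tfh genes, 12 anergy genes or 15 interferon response genes passed. Il21, a Tfh cytokine, was at 75.6 and 60.1 CPM against 79.5 and 68.3 CPM.

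Under 1 cell per clonotype, where 0.416% of all genes were higher and 0.15% lower, the list counts differed. Of 15 receptor signal response genes 5 were higher (Nfkbid, Nr4a1, Nr4a3, Tnfrsf4 and Tnfrsf9), and of 14 regulatory T cell genes 3 were higher (Ctla4, Foxp3 and Tnfrsf18). Of 13 cytotoxic genes, Gzmb and Nkg7 were higher and Gzma lower, and the list's median went from -0.40 to 0.05. The Th1 median went from -0.27 to 0.07, with Ccl3 and Ccl4 higher and Ly6c2 lower among 16 genes. Of 22 proliferation genes, Stmn1 was higher. Genes of other cell types passed in the same fit. Of 5 dendritic cell markers H2-Aa (1.36) and H2-Eb1 (0.87) were higher in the fit of both mice. Of 8 myeloid markers C1qb (-2.32) and S100a9 (-2.71) were lower, in each mouse as well. Of 4 erythroid markers Hbb-bs (-3.08) and Hbb-bt (-1.99) were lower in the fit. The mice went opposite ways for H2-Aa (2.87 in mouse 1 and -1.11 in mouse 2) and H2-Eb1 (1.97 and -0.78). They also did for Hbb-bs (0.56 and -4.29) and Hbb-bt (1.89 and -4.58). The part of these genes of other cell types in the result was not tested.

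The list counts also differed with depth-matched cells. When the 1-alpha cells were drawn to match the 2-alpha cells in UMIs, 319 of 12643 genes passed, 144 higher (1.14%) and 175 lower (1.38%), with infinite prior degrees of freedom in edgeR. Of 14 regulatory T cell genes 11 were higher and 0 lower, and of 15 receptor signal response genes 7 were higher and 1 lower. Of 13 cytotoxic genes 8 were lower and 0 higher, and of 16 Th1 genes 8 were lower and 0 higher. Nkg7, Ccl3 and Ccl4 were thus lower here and higher with 1 cell per clonotype. Of 11 myeloid markers 2 were higher and 4 lower, and of 4 erythroid markers 3 were lower. This draw did not limit the cells per clonotype. With 1 cell per clonotype and depth matching together, 71 of 11823 genes passed, 50 higher and 21 lower. There, of 14 regulatory T cell genes 3 were higher and 0 lower. Of 13 cytotoxic genes Gzmb and Nkg7 were higher and Gzma and Gzmk lower (median 0.06). Of 16 Th1 genes Ccl3, Ccl4 and Ccl5 were higher and Gzmk and Ly6c2 lower.

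The direction of the proliferation list depended on the cells taken. In clonotypes of at most 20 cells, where 0.491% of all genes were higher and 0.135% lower, 10 of the 22 genes were higher and 0 lower (median 0.19). With recurring pairs only, at 0.188% higher and 0.0626% lower, 5 were higher and 0 lower (median 0.56). With depth-matched 1-alpha cells 0 were higher and 3 lower, Mcm6, Rrm2 and Tk1 (median -0.09).

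**Figure D5:**
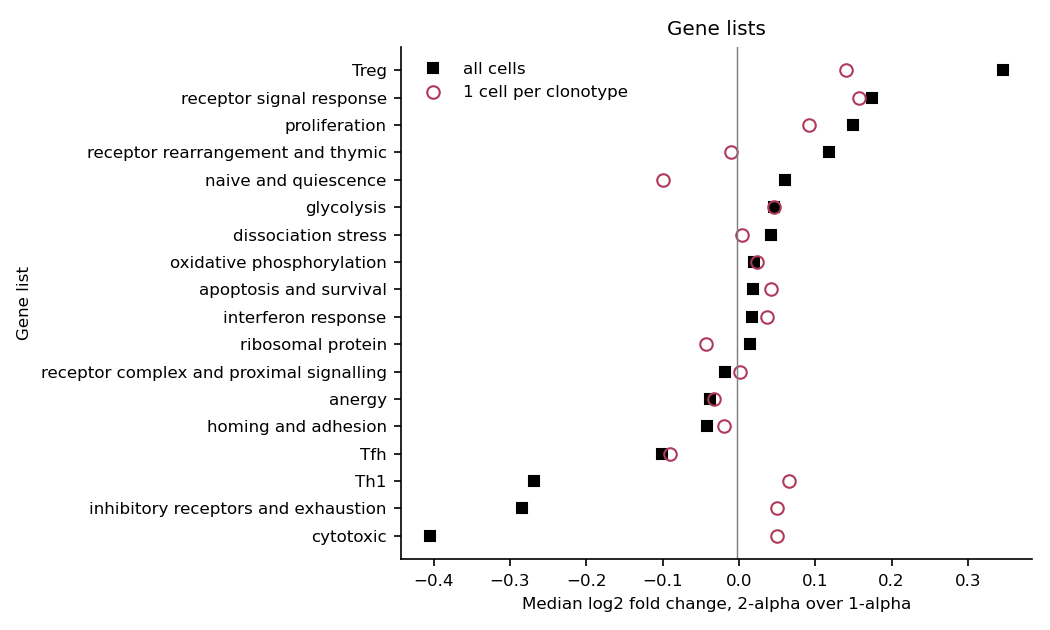
Median log2 fold change of 2-alpha over 1-alpha cells (horizontal) for each gene list (vertical), over all cells (black squares) and with 1 cell per clonotype, mouse and class (open circles), with a grey line at the median of all genes tested. The regulatory T cell list is at 0.35 and 0.14, and the cytotoxic list at -0.40 and 0.05.

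Within clonotypes, cells with 2 detected alpha chains were compared with cells of the same clone that had 1. Equal numbers were drawn per clonotype, 74 of each class from 57 clonotypes in mouse 1 and 64 of each from 58 in mouse 2. The 1-alpha cells were shallower, with median UMIs of 4215 and 5206 against 5612 and 6358. Of 6565 genes, 3 passed (0.0457%), 2 higher (0.0305%) and 1 lower (0.0152%). Ccl5, a chemokine of effector cells, was at 14195 and 5488 CPM against 7954 and 3263 CPM (0.86, adjusted p = 0.00865, edgeR). Ube2c, a mitotic ubiquitin-conjugating enzyme, was at 165 and 323 CPM against 65.1 and 82.1 CPM (1.76, adjusted p = 0.0195, edgeR). Aff3 was at 94.4 and 128 CPM against 260 and 300.0 CPM (-1.27, adjusted p = 0.0469, edgeR). With another draw of cells none passed (464 at an unadjusted p under 0.05). Foxp3 was at 96.4 and 255 CPM against 78.6 and 255 CPM (0.17, adjusted p = 0.861, edgeR).

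Clonotypes were also compared as clones, 3 cells drawn from each, with 56 and 47 2-alpha clonotypes against 263 and 232 clonotypes with no 2-alpha cell. Of 10376 genes, 1 passed (0.00964%), with 591 at an unadjusted p under 0.05. Ifitm1 was at 1.64 and 5.32 CPM in 2-alpha clonotypes against 168 and 276 CPM (-6.01, adjusted p = 4.04e-06, edgeR). Behind these values stood 2 and 6 UMIs in 2-alpha clonotypes and 889 and 1413 UMIs in 1-alpha clonotypes.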

How the data were processed

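Expression and receptor libraries (10x 5′ v2) of CD4 T cells from 2 hosts were processed with Cell Ranger 7.0.1, with builds mm10 and GRCm38, per the submitters' processing notes; how contigs were filtered is not given in the sources used here. The deposited matrices are raw UMI counts of genes by barcode, and the deposited contig tables give UMI counts for each contig. The members and gene lists were chosen with earlier results of these data known.

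Counts were summed per mouse and class (4 sums) and fitted with edgeR 4.0.16 (TMM, filterByExpr, glmQLFit, glmQLFTest), with DESeq2 1.42.0 as an alternative, in R 4.3.3. Receptor genes were left out. SE is the fold change over the root of F. CPM are scaled to all UMIs of a sum, receptor genes included. Both classes come from the same animals, so the mouse is a block by design: the difference between mice in 2-alpha sums correlated with that in 1-alpha sums over genes at r = 0.233. Scripts were tested on simulated data.

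Scrublet (scanpy 1.11.5) marked 0 of 19502 barcodes, so the caller did not work, and doublets were not removed. Named genes were the 10 largest changes each way among called genes whose direction matched between mice and whose mean CPM reached 20 in a class, the 2 genes of smallest p from each of 27 lists, and 20 fixed genes (5 each way and the fixed genes in the other comparisons). Genes named outside this rule were chosen after their values were seen: Gzmb, Nkg7, Nfkbid, Nr4a3, Tnfrsf18, Ngp, Hs6st3, C1qb, H2-Aa, H2-Eb1, Ccl3, Ccl4, Ly6c2, Stmn1, Mcm6, Rrm2 and Tk1.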

Additional observations from a re-analysis of the deposited data

Results flagged for a closer look

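The difference between 2-alpha and 1-alpha cells was itself compared between TRBV26 cells and other cells, as an interaction term in edgeR over 11855 genes. It passed the adjusted threshold for 1 gene (805 had an unadjusted p under 0.05). That gene was Gzmb, which encodes granzyme B, named after its value was seen. Its log2 fold change was 0.52 in TRBV26 cells and -0.26 in other cells, a difference of 0.78 ± 0.09 (SE; adjusted p = 0.0235, edgeR). A single cell held 12.0% of the Gzmb UMIs of 2-alpha cells in mouse 1, and the largest clonotype's share of 1-alpha Gzmb UMIs was 11.3% and 10.1%; their part in the result was not tested.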

How the results depend on the processing

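The share, depth ratio and recurrence of the second chain moved by less than 1 SD (of the 2 mice) under every alternative that kept both mice. When either mouse was left out they were 11.4 to 13.3%, 1.04 to 1.07 and 92.6 to 93.3%. Leaving out 1 of 2 mice moves a mean by under 1 such SD whatever the data, so it says nothing on stability. The 14 genes called over all cells were 303 without a filter on low counts, 7 by DESeq2, 319 with depth-matched and 80 with thinned cells. They were 68 with 1 cell per clonotype, 71 when these were also depth-matched, 24 without the 5 largest clonotypes of each mouse, and 102 without TRBV26 cells. They were 32 with recurring pairs only, 5 with second chains of at least 3 UMIs and 2 at no more than 5% mitochondrial UMIs. Alternatives chosen after seeing the data gave 79 (clonotypes of at most 20 cells), 7 (single-cell clonotypes), 249 (without the top 5% of doublet scores) and 34 (without cells with other cell types' markers). In only TRBV26 cells 0 passed edgeR's test (589 at an unadjusted p under 0.05). Without the mouse as a block (no replicate block) 0 passed in edgeR (346 unadjusted) over all cells and 0 within clonotypes (401 unadjusted), and 1 between clonotypes. Within clonotypes the 3 calls became 1 with RLE size factors, 62 without a filter, 10 with pairs within 1.2-fold in UMIs and 0 with another draw. Between clonotypes the 1 call became 2 with RLE size factors, 21 without a filter, and 6 with 1 cell per clonotype or another draw. Prior degrees of freedom ranged from 4.73 to infinite; otherwise the cause was not tested. Foxp3 stayed called in 13 of 20 alternatives (0.16 to 0.79), Gzma in 17 (-2.55 to -0.13) and Cd7 in 9.

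Directions reversed as follows. With 1 cell per clonotype, Cd7 was 0.045, S100a8 -1.70 and S100a9 -2.71; depth-matched as well, they were 0.075, -1.89 and -2.96. In single-cell clonotypes S100a8 was -1.73 and S100a9 -3.53. Cd7 was 0.093 in clonotypes of at most 20 cells, S100a8 -0.035 without cells with other cell types' markers, and S100a9 -5.23 without mouse 1 and 2.24 without mouse 2. Cd74 was -0.10 in TRBV26 cells. With recurring pairs Ccr7 was -0.90 and Bcl2 -0.63. Leaving out a mouse leaves no residual degree of freedom, so it gives values and no test. Leaving out barcodes marked by Scrublet was not run, since it marked none.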
